A study of Homo sapiens with 6 samples.

Results

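Cohesin is described here through 10 genes of the deposited table, the acetyltransferases ESCO1 and ESCO2, the ring subunits SMC1A, SMC3, RAD21, STAG1 and STAG2, the loader subunit NIPBL, and the release and maintenance factors WAPAL (now called WAPL) and PDS5A. They were taken by gene symbol from a table of 18236 genes, and all 10 passed the filter that left 14539 genes for testing. The members were chosen by normalized counts of this same contrast, in which ESCO2 had been seen to be much higher in mutant cells, so the difference of each of these genes between the lines is a description and carries no test. Cells of the colorectal cancer line HCT116 were compared in 2 derivatives, each carrying 1 disrupted and 1 remaining allele of CTNNB1, which encodes β-catenin. The wild-type cells (CTNNB1 WT/-) have lost the mutant allele and keep the intact copy, and the mutant cells (CTNNB1 -/Δ45) keep only the copy with the stabilizing Δ45 deletion. Both lines were grown in the same medium without treatment, and RNA was sequenced from 3 replicates of each. The labels do not say whether the replicates were separate cultures or how many clones stand behind a line, so a difference between the lines and a difference between clones cannot be told apart. A count summed over a whole gene also does not separate the alleles of CTNNB1, and it gives no check of the genotype.

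Cohesin is a ring-shaped complex that holds sister chromatids together from DNA replication until anaphase and folds interphase chromatin into loops. SMC1A and SMC3 form the long arms of the ring, RAD21 closes it, and either STAG1 or STAG2 binds RAD21. NIPBL, with its partner MAU2, loads the ring onto DNA, WAPL opens it again, and PDS5 proteins take part in both release and stable cohesion. ESCO1 and ESCO2 acetylate SMC3, which protects the ring from release. ESCO2 acts during S phase, ESCO1 throughout the cell cycle. Mutations in NIPBL, SMC1A, SMC3 and RAD21 are known from Cornelia de Lange syndrome, mutations in ESCO2 from Roberts syndrome, and STAG2 is frequently inactivated in several cancers.

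The RefSeq table of promoters, on assembly GRCh38.p14, held windows of 300 bases (250 before to 50 after a transcription start) for 7 of the 10 genes. ESCO1, ESCO2 and RAD21 had no entry. The windows were searched on both strands for letters of the E2F element of replication genes (TTTGGCGC, TTTCGCGC or TTTCCCGC), which were found in 4 genes. The 4 windows are printed because these letters are shared by genes that differed in how far apart the lines were, STAG1 and SMC1A with large log2 differences and NIPBL and STAG2 with small ones. Each is written 5′ to 3′ on the strand of the gene, and capitals mark every match to a searched motif, the E2F letters as well as CCAAT and CGGAAGT, which on the opposite strand read ATTGG and, for the longer motif, ACTTCCG.
STAG1, chr3:136752329-136752628, minus strand: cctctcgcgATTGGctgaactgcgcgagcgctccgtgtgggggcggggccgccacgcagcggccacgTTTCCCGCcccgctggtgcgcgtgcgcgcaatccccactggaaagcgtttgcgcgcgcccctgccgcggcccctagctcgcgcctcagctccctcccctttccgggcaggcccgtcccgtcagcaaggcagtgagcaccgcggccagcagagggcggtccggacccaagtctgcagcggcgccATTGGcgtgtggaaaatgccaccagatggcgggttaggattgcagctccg
SMC1A, chrX:53422605-53422904, minus strand: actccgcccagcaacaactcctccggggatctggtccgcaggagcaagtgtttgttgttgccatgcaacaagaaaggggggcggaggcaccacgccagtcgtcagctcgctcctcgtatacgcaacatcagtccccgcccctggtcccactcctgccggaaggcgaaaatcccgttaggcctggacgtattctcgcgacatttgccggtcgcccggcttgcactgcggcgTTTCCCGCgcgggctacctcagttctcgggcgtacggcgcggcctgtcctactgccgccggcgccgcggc
NIPBL, chr5:36876519-36876818, plus strand: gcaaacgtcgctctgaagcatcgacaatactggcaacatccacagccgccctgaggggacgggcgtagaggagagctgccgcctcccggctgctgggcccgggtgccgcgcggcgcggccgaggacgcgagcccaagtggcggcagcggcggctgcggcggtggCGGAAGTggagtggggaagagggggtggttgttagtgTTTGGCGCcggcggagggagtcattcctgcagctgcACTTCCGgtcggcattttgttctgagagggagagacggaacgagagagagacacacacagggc
STAG2, chrX:123961808-123962107, plus strand: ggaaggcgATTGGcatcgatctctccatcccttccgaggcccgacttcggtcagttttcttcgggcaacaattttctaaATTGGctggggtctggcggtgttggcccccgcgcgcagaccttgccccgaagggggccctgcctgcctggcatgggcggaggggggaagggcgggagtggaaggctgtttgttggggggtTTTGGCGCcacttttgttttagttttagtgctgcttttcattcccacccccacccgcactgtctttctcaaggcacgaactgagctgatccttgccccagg
The first base of the E2F letters lay at -183 from the start in STAG1, at -20 in SMC1A, at -49 in NIPBL and at -51 in STAG2. In SMC1A only 1 of 2 annotated starts had them, and in STAG2 only 1 of 3. Of all 35116 promoter windows 2.74% held such letters. This share and those below are of windows, while the cohesin counts are of genes, some with several windows, so the 2 are not alike. CCAAT, the NF-Y element, was found in STAG1, STAG2, PDS5A and WAPAL and in 34.6% of all windows. CGGAAGT, an ETS element, occurred in NIPBL at -86 and -13 and in 6.83% of all windows, and TTTGAA, the CHR element of late cell cycle genes, in SMC3 and in 15.2% of all windows. CTTTGAT and CTTTGAA, elements of the TCF/LEF factors through which β-catenin acts, were in none of the 7 genes' windows and in 6.86% of all. TTTGAA lies within CTTTGAA, so these matches overlap. A match describes letters in a window and no factor was measured there.

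The reads in genes, recovered from the deposited values, numbered 21.8 to 41.4 M in the wild-type samples and 33.5 to 57.9 M in the mutant samples, and the 10 genes had between 99 and 53638 reads in a sample. In both lines replicate 1 stood apart, in the direction of the other line. For the 10 genes wild-type replicate 1 was the highest of its line in 10 of 10, against 62.3% of all tested genes, and mutant replicate 1 was the lowest of its line in 7 of 10, against 56.6%. The cause was not tested, and values are given below with and without both of these libraries. Where replicate 1 lay toward the other line, leaving it out widens the difference by construction. It can also narrow the SE, so the values without both replicates 1 are a description only. Mutant values were higher in the median tested gene by 0.24 on the log2 scale with the authors' scaling and by 0.01 with edgeR's, so the differences of the 10 genes are to be read against these medians. Of the lines' epithelial markers EPCAM, KRT8, KRT18, KRT19, CDH1 and CLDN4, the summed normalized counts were 60694 to 63769 in wild-type and 46562 to 50989 in mutant cells. The leukocyte markers PTPRC and CD3E had at most 4 reads in a sample, as did the endothelial marker PECAM1, and the sums were 617 to 886 and 133 to 476 for 6 leukocyte markers (mostly HLA-DRA), 3582 to 4708 and 1977 to 4478 for 6 fibroblast markers (mostly COL1A1), and 118 to 152 and 65.3 to 89.2 for 4 endothelial markers (mostly VWF). These lists were lower or overlapping in mutant cells, and their part in the results was not tested.

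Across the 10 genes, mutant cells had the higher mean in every case (for STAG2 not with the scaling of edgeR, DESeq2 or TMM), with a median log2 difference of 0.95 against 0.24 for all tested genes. The calls of the fit over all genes are given for the set as a description only, since the same contrast served to pick it, and nothing is read from the counts that follow. By limma (Benjamini-Hochberg adjusted p under 0.05 over all tested genes) the threshold was passed by 6 of the 10 in the direction of higher mutant values and by 0 in the other, beside 17.3% and 10.0% of all genes (2517 and 1459). With edgeR on the recovered reads the higher count was 5, beside 12.3% of all genes (1783, with 1625 lower), and with DESeq2 6, beside 21.7%. In 6 of the 10 genes every mutant value was above every wild-type value, as in 26.6% of all genes, and in 0 below, as in 19.1%. In RNA of whole cultures, a change in the share of cells in a cell cycle phase and a change in RNA per cell cannot be told apart. Without wild-type replicate 1, 9 genes were called higher (34.1% of all genes), and without mutant replicate 1, 6 (beside 5181 of all genes). Without replicate 1 of both lines 10 were called (53.1%), with a median log2 difference of 1.36 against 0.39 for all genes. Leaving out either replicate 2 or replicate 3, of the wild-type or of the mutant line, left 0 of the 10 called by limma and by edgeR, with 6 and 5 respectively at an unadjusted p under 0.05, and 3 called by DESeq2 in each case. In those 4 fits limma called between 0 and 6 of all tested genes higher, and edgeR between 0 and 12. At an unadjusted p under 0.05, 2648 to 2739 of all tested genes were higher with limma and 2039 to 2263 with edgeR. DESeq2 called 1004 to 1152 of all tested genes higher.

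**Figure D1:**
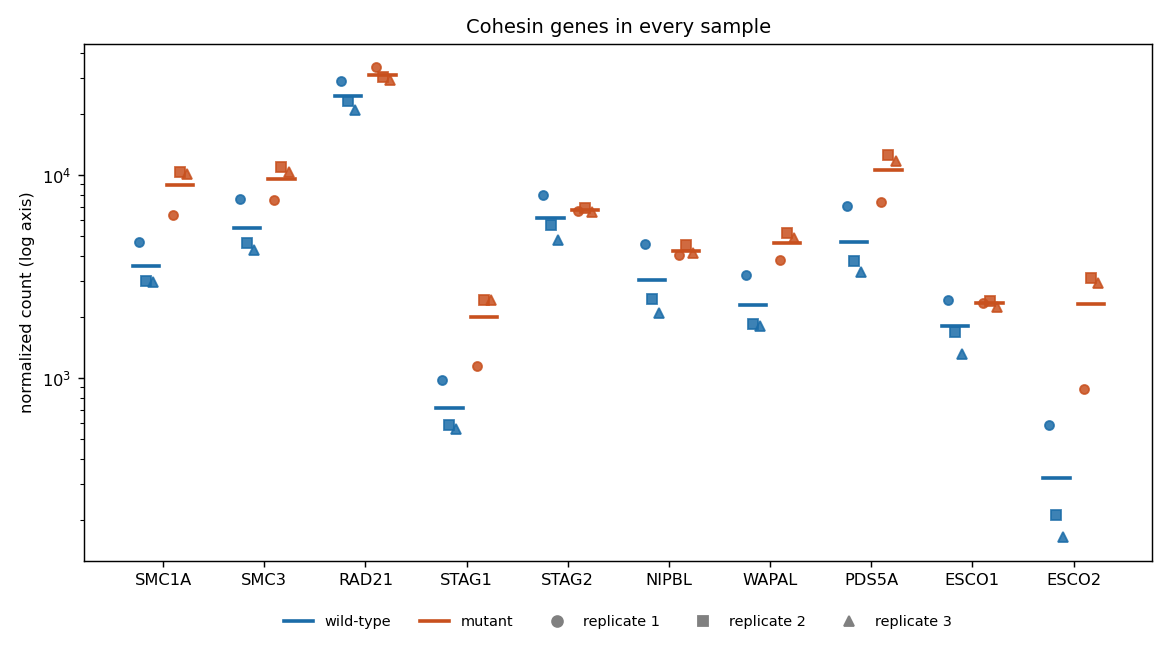
Normalized counts (log axis) of the 10 cohesin genes in the 3 wild-type (blue) and 3 mutant (orange) samples, with marker shape for the replicate number and a line for the mean of each line. For ESCO2 the 3 mutant samples lie between 886 and 3117 and the wild-type samples between 165 and 590, while for STAG2 the groups overlap.

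ESCO2, the acetyltransferase of S phase, had 590, 212 and 165 normalized counts in the wild-type samples (in the order of replicates 1, 2 and 3, here and below) and 886, 3117 and 2938 in the mutant samples. The lines did not overlap, but wild-type replicate 1 and mutant replicate 1 lay near each other and far from the other samples of their line. The means were 322 ± 233 and 2313 ± 1239 (SD, n = 3 each), a ratio of 7.18, and the log2 difference was 2.87 (SE 0.62). Without replicate 1 of both lines the log2 difference was 4.01 (SE 0.12) and the ratio of means 16.1. ESCO1, its paralog, had 2418, 1691 and 1319 normalized counts in wild-type and 2358, 2411 and 2247 in mutant samples. Its mutant samples lay close together and below wild-type replicate 1, and the log2 difference was 0.41 (SE 0.23), or 0.64 (SE 0.12) without both replicates 1.

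ESCO2 lies on chromosome 8 (GRCh37 27629466 to 27670157, plus strand) and its ends overlap those of CCDC25 by 705 bases and of PBK by 3017 bases, both on the opposite strand. Whether reads were counted by strand is not given in the sources used here, so reads of these genes and of ESCO2 may be shared. CCDC25 had 2743 to 3854 normalized counts in wild-type and 3174 to 3916 in mutant samples, with a log2 difference of 0.13 (adjusted p = 0.591, limma). PBK, a mitotic kinase, rose in mutant cells, from 3312 to 4971 normalized counts in wild-type samples to 6429 to 7395, by 0.80 on the log2 scale (adjusted p = 0.0404). SCARA3, the next tested gene before CCDC25, rose by 1.81 (adjusted p = 0.0404), and SCARA5, beyond PBK, had a log2 difference of -1.08 that was not called (adjusted p = 0.0913). The genes whose 6 values most resembled ESCO2's, by the root mean square difference of centred log2 values, were RNF170 (0.050), POGLUT1 (0.097), EPC2 (0.114), RFXAP (0.118) and FAM208A (0.125), picked among genes that averaged 100 or more normalized counts. RNF170 had 157, 55.3 and 41.6 normalized counts in wild-type and 219, 857 and 792 in mutant samples, the same order of samples as ESCO2 at a lower count. Among the 10 cohesin genes the one nearest to ESCO2 was STAG1, at 0.80.

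SMC1A, an arm of the ring, had 4690, 3025 and 2963 normalized counts in wild-type samples and 6336, 10372 and 10187 in mutant samples. The groups did not overlap, and mutant replicate 1 was nearest to the wild-type range. The log2 difference was 1.33 (SE 0.26), and 1.78 (SE 0.05) without both replicates 1. SMC3, the other arm and the target of the ESCO enzymes, had 7647, 4629 and 4278 in wild-type and 7582, 10985 and 10319 in mutant samples. Here the replicates 1 of the lines were nearly equal, the groups overlapped, and the log2 difference was 0.83 (SE 0.26), and 1.26 (SE 0.07) without them. RAD21, the subunit that separase cleaves at anaphase, had 29250, 23142 and 20938 in wild-type and 33919, 30611 and 29264 in mutant samples. Its mutant values were all higher, though the lowest of them was nearly equal to the highest wild-type value, and in contrast to the arms mutant replicate 1 was the highest of its line. The log2 difference of RAD21 was 0.37 (SE 0.16), and 0.44 (SE 0.07) without both replicates 1. RAD21 overlaps UTP23 by 3530 bases and RAD21-AS1 by 353, both on the opposite strand.

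STAG1 and STAG2 are alternative subunits of the ring, and they behaved differently. STAG1 had 984, 588 and 560 normalized counts in wild-type samples and 1146, 2418 and 2440 in mutant samples. The groups did not overlap, with the replicates 1 nearest to each other, and the log2 difference was 1.46 (SE 0.36), or 2.08 (SE 0.07) without them. STAG2 had 7977, 5710 and 4773 in wild-type and 6687, 6914 and 6620 in mutant samples. All 3 mutant values of STAG2 fell between the wild-type values, and the log2 difference was 0.16 (SE 0.20), which is below 0 with edgeR's scaling (-0.08) and 0.37 (SE 0.09) without both replicates 1. STAG1 lies on chromosome 3 (136055078 to 136471245, minus strand) and shares 1661 bases with PCCB on the opposite strand. STAG2 on chromosome X (123094062 to 123556514, plus strand) shares bases with SH2D1A and SNORA40 on the same strand and with TENM1 on the opposite strand.

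**Figure D2:**
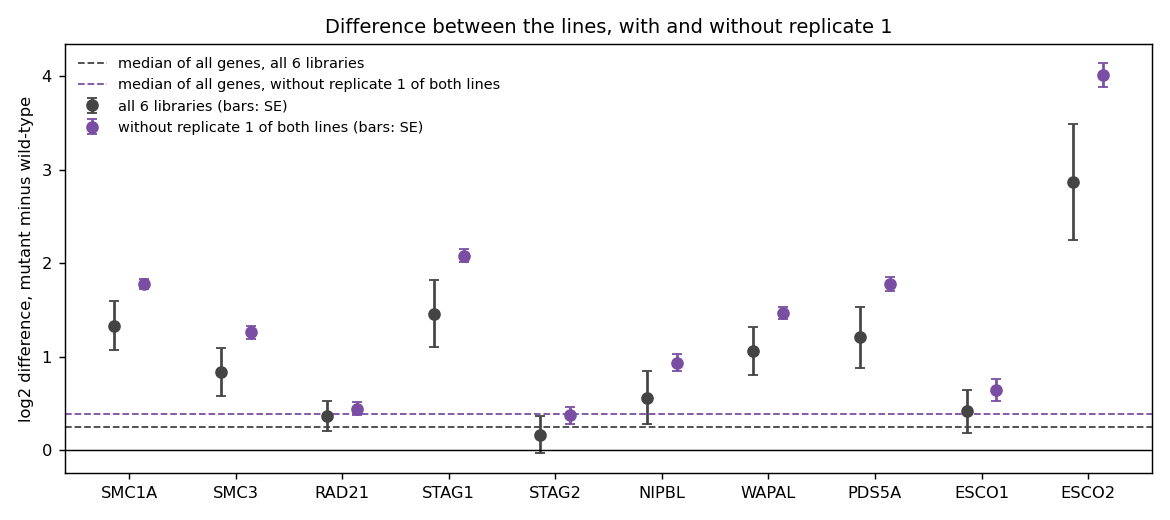
Log2 difference (mutant minus wild-type) of each cohesin gene from all 6 libraries (grey) and without replicate 1 of both lines (purple), with standard errors and dashed lines at the median of all tested genes. The point of ESCO2 moves from 2.87 to 4.01 and that of STAG2 from 0.16 to 0.37, while the medians of all genes are 0.24 and 0.39.

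NIPBL, the loader, had 4588, 2442 and 2097 normalized counts in wild-type and 4040, 4518 and 4148 in mutant samples. All mutant values were below wild-type replicate 1 and above the other wild-type samples, with a log2 difference of 0.56 (SE 0.29), or 0.94 (SE 0.09) without both replicates 1. WAPAL, the release factor, had 3239, 1846 and 1809 in wild-type and 3825, 5186 and 4924 in mutant samples, with no overlap. Its log2 difference was 1.06 (SE 0.26), and 1.47 (SE 0.06) without both replicates 1. PDS5A had 7021, 3760 and 3349 in wild-type and 7357, 12604 and 11761 in mutant samples, where wild-type replicate 1 and mutant replicate 1 were close but the groups did not overlap. The log2 difference of PDS5A was 1.21 (SE 0.33), and 1.78 (SE 0.08) without both replicates 1. Of the 10 genes 7 have transcripts above the upper quartile of length (over 5095 bases), and all tested genes above it had a median log2 difference of 0.40, against -0.02 for those below the lower quartile. The part of transcript length in the results was not tested.

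To compare genes with one another, normalized counts were divided by transcript length. RAD21 was the most abundant in both lines, at 6679 ± 1177 counts per kb in wild-type and 8542 ± 654 in mutant cells (SD, n = 3). In wild-type cells SMC3 (999 ± 335), STAG2 (996 ± 267) and PDS5A (661 ± 282) followed, with overlapping spreads. ESCO1 (403 ± 125), SMC1A (367 ± 101), WAPAL (364 ± 129) and NIPBL (292 ± 129) came next, with spreads that overlapped one another and that of PDS5A. STAG1 (117 ± 39.2) and ESCO2 (85.9 ± 62.2) were lowest. In mutant cells SMC3 (1744 ± 327) and PDS5A (1483 ± 395) came after RAD21 by their means, with overlapping spreads. STAG2 (1091 ± 24.9), SMC1A (923 ± 235), WAPAL (736 ± 114), ESCO2 (616 ± 330) and ESCO1 (521 ± 18.7) followed. From PDS5A to ESCO1 each spread overlapped the next, and the level of ESCO1 per kb lay within the spread of ESCO2. In mutant replicate 1 PDS5A (1032) was below STAG2 (1082). NIPBL (406 ± 24.0) and STAG1 (330 ± 122) had the lowest means, and both overlapped the spread of ESCO2. In mutant replicate 1 ESCO2 (236) was below NIPBL (387). These spreads are across samples, and within every sample of both lines SMC3 was above PDS5A.

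**Figure D3:**
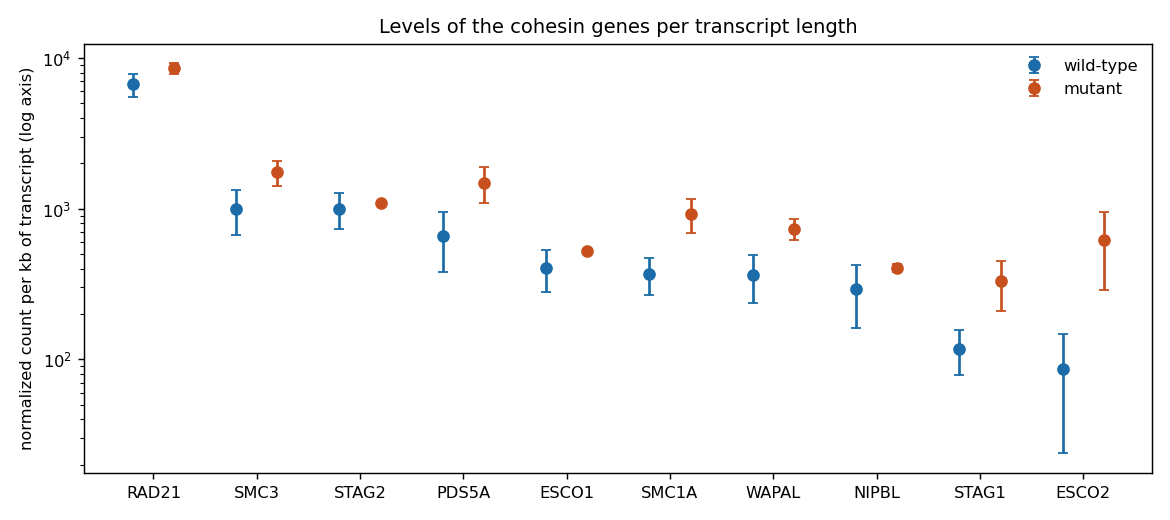
Normalized count per kb of transcript (log axis) of the 10 genes in wild-type (blue) and mutant (orange) cells, as mean and SD of 3 samples, ordered by the wild-type mean. RAD21 is highest in both lines and ESCO2 moves from the lowest place, at 85.9, to 616.

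Ratios of counts per kb within a sample do not depend on the scaling between samples. The ratio of ESCO2 to ESCO1 was 0.292, 0.150 and 0.149 in wild-type and 0.449, 1.55 and 1.56 in mutant samples, so that ESCO2 exceeded ESCO1 in mutant replicates 2 and 3 but in no other sample. The ratio of STAG1 to STAG2 was 0.126, 0.105 and 0.119 in wild-type and 0.175, 0.356 and 0.376 in mutant samples, with STAG2 the more abundant in all 6. The ratio of SMC1A to SMC3 was 0.349, 0.372 and 0.394 in wild-type and 0.475, 0.537 and 0.561 in mutant samples, without overlap. The ratio of RAD21 to SMC3 was 5.77, 7.54 and 7.38 in wild-type and 6.75, 4.20 and 4.28 in mutant samples, where mutant replicate 1 lay inside the wild-type range. The ratio of WAPAL to NIPBL was 1.17, 1.25 and 1.43 in wild-type and 1.56, 1.90 and 1.96 in mutant samples, and that of PDS5A to NIPBL was 2.24, 2.25 and 2.34 against 2.66, 4.08 and 4.14. Each of these ratios comes from the contrast that picked the set and is given without a test.

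**Figure D4:**
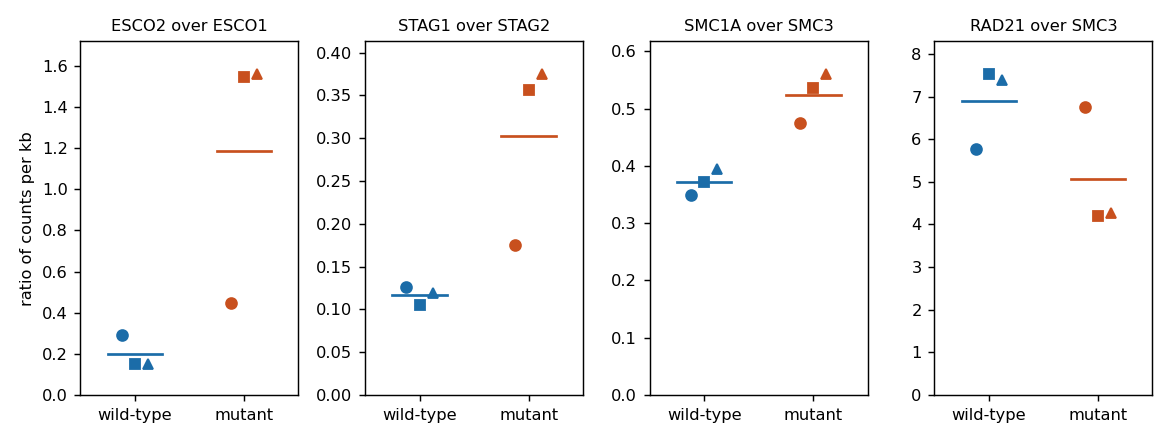
Ratio of counts per kb within each sample for 4 pairs of cohesin genes, with wild-type samples in blue, mutant samples in orange, marker shapes for replicates 1 (circle), 2 (square) and 3 (triangle), and lines at the means. The ratio of ESCO2 to ESCO1 is 1.55 and 1.56 in mutant replicates 2 and 3 and 0.449 in mutant replicate 1.

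Further genes of the cohesin pathway, not among the 10, were tested in the same limma fit. This list and those of related complexes and cell cycle genes below were chosen with earlier results of these data known. Their counts and p-values are therefore descriptive. Of 20 such genes 19 passed the filter (SMC1B did not), 10 rose in mutant cells, 2 fell and 7 were not called, with a median log2 difference of 0.77. TIMELESS, which travels with the replication fork, rose by 0.81 (adjusted p = 0.0404), CHTF8, of the alternative clamp loader at the fork, by 1.80 (adjusted p = 0.0409), and CTCF, which halts cohesin on chromatin, by 0.58 (adjusted p = 0.0412). The meiotic kleisin REC8 fell by 1.60 (adjusted p = 0.0410), as did CHTF18, the large subunit of that clamp loader, by 0.74 (adjusted p = 0.0411). MAU2, the partner of NIPBL, and PDS5B, the paralog of PDS5A, rose by 2.02 and 1.23 (adjusted p = 0.0431 and 0.0433), and were chosen after their values were seen. Of the securin PTTG1 and CDCA5, the cohesion stabilizer sororin, neither was called, with log2 differences of -0.43 and 0.37, and they too were picked with their values known. With edgeR 6 of the 19 were called higher and 2 lower, CTCF was not called (log2 difference 0.34), and without replicate 1 of both lines limma called 14 and 4.

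Related complexes and cell cycle genes were tested for context. Of 15 condensin and SMC5/6 genes 7 rose and 0 fell, among them SMC4 by 1.36 (adjusted p = 0.0411), NCAPH by 1.23 (0.0413) and NCAPG2 by 0.92 (0.0426), all of condensin, and NSMCE2 by 0.92 (0.0458) and NDNL2 by 0.89 (0.0455), of the SMC5/6 complex. With edgeR only 4 of the 15 were called higher, and NDNL2 was not (log2 difference 0.68). Of 40 S phase genes 25 rose and 0 fell, with a median of 1.12. TYMS, the thymidylate synthase, rose by 1.98, the flap endonuclease FEN1 by 1.84, the clamp loader subunit RFC5 by 1.06 and GINS1, of the replicative helicase, by 1.08 (adjusted p = 0.0404 for each). Of 32 mitosis genes 10 rose and 0 fell, with a median of 0.64, among them the chromosomal passenger BIRC5 by 0.60 and the kinetochore gene NUF2 by 0.72 (both 0.0404), the histone kinase GSG2 by 2.47 (0.0413), the checkpoint kinase BUB1B by 1.13 and the spindle motor KIF11 by 1.77 (both 0.0416). With edgeR BIRC5 was not called (log2 difference 0.37). These counts stand beside 17.3% of all genes called higher and a median of 0.24. Without wild-type replicate 2 or 3, or without mutant replicate 2 or 3, limma called 0 genes higher in each of these lists and in the list of further cohesin genes. The medians of the cohesin genes, 0.95, and of the S phase genes were both above that of all genes, and neither was compared with the other by a test.

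**Figure D5:**
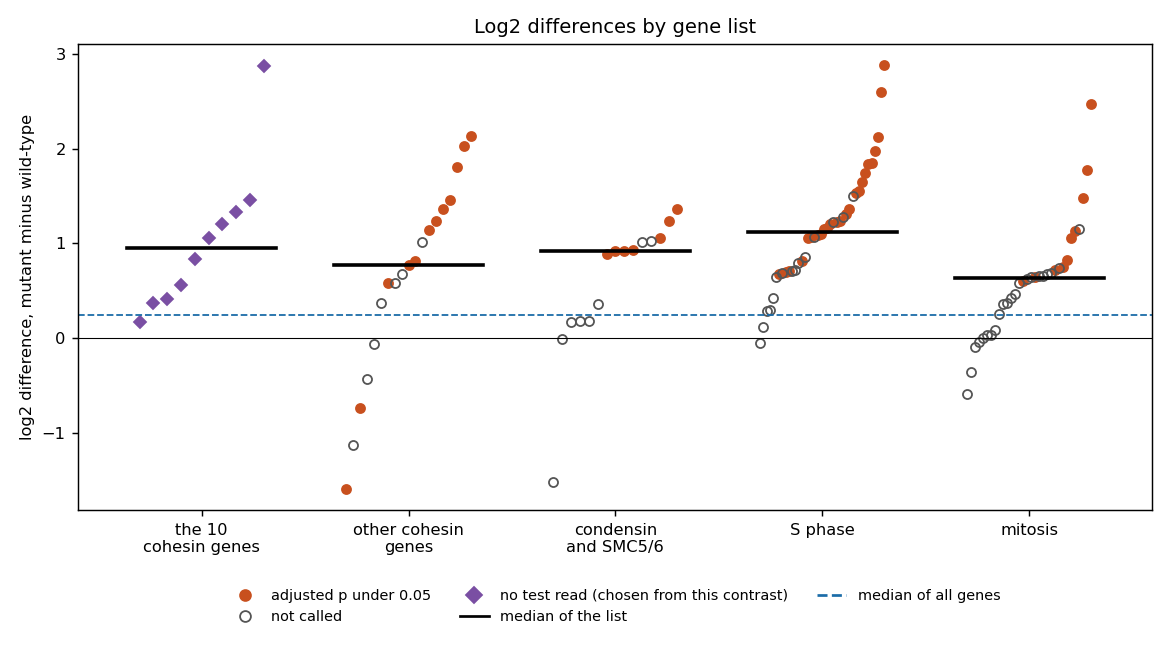
Log2 difference (mutant minus wild-type) of every tested gene of 5 lists, with diamonds for the 10 cohesin genes, for which no test is read because this contrast chose them, and in the other lists filled circles for an adjusted p under 0.05 (limma) and open circles for genes not called, black lines at the list medians and a dashed line at the median of all genes, 0.24. The list medians are 0.95 for the 10 cohesin genes, 0.77, 0.92, 1.12 and 0.64 for the other lists from left to right, and the highest cohesin point is ESCO2.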

How the data were processed

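RNA of 3 wild-type and 3 mutant HCT116 samples was sequenced as paired ends after removal of ribosomal RNA, although the labels' molecule field says polyA RNA. Mapping by the authors used TopHat2 2.1.0 and hg19, gene summaries used htseq-count, and their comparison used DESeq. CASAVA 1.8.2 is listed in the submitters' processing notes. Versions of HTSeq and DESeq, the annotation and the strand setting are not given in the sources used here. The deposited signal values (normalized counts) are reads per gene after division by a size factor of each sample. Dividing by the smallest step gave whole reads for 100% of values within 0.001. The authors' log2 ratio and adjusted p columns were not used.

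Genes averaging 10 or more normalized counts (14539) entered limma 3.58.1 (eBayes with trend, R 4.3.3) on log2(value + 1), with calls at a Benjamini-Hochberg adjusted p under 0.05. A log2 difference on this scale understates changes of low genes. Whether the replicates were separate cultures is not stated, so p-values measure only how these samples vary, and that variation may be technical. Alternatives were edgeR 4.0.16 and DESeq2 1.42.0 on recovered reads, TMM scaling, other filters (none, a mean of 50) and pseudocounts (0.5, 5). Further alternatives were a replicate block, each library left out, and replicate 1 of both lines left out. The fits of edgeR and DESeq2 with a library left out were chosen after seeing the data. The limma, edgeR and DESeq2 fits of all samples, and the replicate block, were tested on simulated data. The other alternatives were not. The simulated counts held no shift of replicate 1. Members and lists were chosen with earlier results of these data known. Named genes are the 10 members, up to 5 called genes of each list with the smallest p, the 5 genes nearest to ESCO2 and the 2 tested genes on either side of it. A gene that this rule selects is not reported here. Of the symbols 15673 matched GENCODE 44 (GRCh37) directly and 1482 through synonyms, and 1081 did not match. Transcript lengths come from that annotation.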

Additional observations from a re-analysis of the deposited data

How the results depend on the processing

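The log2 differences of the 10 cohesin genes were recomputed under 27 alternatives, and 245 of the 270 values moved by less than 1 SD. This SD is that of the gene's log2 values pooled within the lines, and a replicate 1 that stood apart widens it. The other filters and the replicate block leave a gene's difference unchanged by construction, so their values are no check of stability. Only STAG2 went below 0, in 14 of the 27 alternatives, with a range of -0.20 to 0.37. ESCO2 ranged from 2.35 to 4.01. With edgeR 6 further cohesin genes and 4 condensin and SMC5/6 genes were called higher and 1 mitosis gene lower. TMM rescaling also called 1 mitosis gene lower. DESeq2 called 2999 genes lower in all, with 4 further cohesin genes and 2 mitosis genes lower. The cause of these shifts was not tested.

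Deviations of same-numbered samples from the means of their lines correlated at -0.53, -0.43 and -0.31 across 14539 genes. Deviations cancel out within a line, and both replicates 1 stood toward the other line. These correlations therefore cannot decide whether the numbers pair the samples. With a replicate block limma called 0 genes higher and 0 lower, 0 of them cohesin genes or list genes, with 2604 and 1701 genes at an unadjusted p under 0.05, and 5 cohesin genes.

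Without replicate 1 of both lines limma called 7713 genes higher and 4231 lower, with 10 of the cohesin genes higher. In the lists it called 4 further cohesin genes lower, 13 condensin and SMC5/6 genes higher and 1 lower, 39 S phase genes higher, and 24 mitosis genes higher and 3 lower. Over the fits with a single library left out (limma, edgeR and DESeq2) the calls were 0 to 5181 higher and 0 to 4352 lower among all genes, 0 to 9 higher for the cohesin genes, 0 to 13 higher and 0 to 4 lower for the further cohesin genes, 0 to 10 higher and 0 to 2 lower for condensin and SMC5/6, 0 to 38 higher and 0 to 1 lower for S phase, and 0 to 22 higher and 0 to 6 lower for mitosis.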
